A study of Komagataella phaffii with 13 samples.

Results

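Methanol-fed cells of the methylotrophic yeast *P. pastoris* (*K. phaffii*) were compared with glycerol-fed cells. The comparison used 11 of the 13 RNA sequencing libraries of the series, namely 1 library of the glycerol feed at 3 h (G_3) and 10 libraries of methanol induction, taken every 12 h from M_12 to M_120. According to the study's methods, all of them came from a Mut+ GS115 (His4) strain that carried the *A. niger* PhyA phytase gene behind the *AOX1* promoter, with the alpha-mating factor signal of *S. cerevisiae* for secretion. Between G_3 and M_12 the culture received a mixed feed of glycerol and methanol, sampled at 2 h (GM_2). The values of GM_2 and of the yeast cell culture at 10 h (B_10), which its label places at bench scale, are given beside single genes for description. They played no part in the calls beyond the filter on the mean of all libraries, except for B_10 in 1 stated alternative. The labels raise the strain number by 1 from each methanol sample to the next and their extraction text describes retinas. All libraries were treated as GS115 yeast, as the study states.

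The glycerol feed had 1 library, and the methanol libraries were serial samples of 1 culture, so no p-value was given for any difference between the feeds. A gene was called when its log2(FPKM + 1) lay at least 1 above that in G_3 in every methanol library, or at least 1 below it in every one. FPKM gives fragments relative to transcript length and to a divisor for each library. Differences between the feeds below are on that scale and are medians over the 10 methanol libraries unless a library is named. Carbon source, time in culture, cell density, the preceding mixed feed and phytase production changed together between G_3 and the methanol libraries, and their effects cannot be told apart. The phytase transcript itself was not analysed here. Fragment numbers could be recovered from the steps between low FPKM values, and 90.2 to 93.3% of the values examined came out whole within 0.01. The recovered depth was 23452900 to 36885000 fragments in these 11 libraries.

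In methylotrophic yeasts, methanol enters the peroxisome, where alcohol oxidase turns it into formaldehyde and hydrogen peroxide. Formaldehyde is then either oxidised stepwise to carbon dioxide, which yields NADH, or joined to xylulose 5-phosphate by dihydroxyacetone synthase, which begins the assimilation of its carbon through a cycle of sugar phosphates. Glycerol is phosphorylated by glycerol kinase and enters the lower part of glycolysis. The *AOX1* promoter is known to be repressed on glycerol and induced on methanol, which is why it is used to drive foreign genes.

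Of 5439 identifiers, 5100 had a mean FPKM of at least 1 over all libraries. Among these, 297 genes (5.82%) rose and 161 (3.16%) fell in all 10 methanol libraries, 458 (8.98%) together. The genes that rose had the wider range of sizes. Their largest difference was 9.30 and 53 of them differed by 3 or more, whereas the largest fall was −4.14 and only 7 genes fell by 3 or more. Together, the genes that rose held 3.04% of all FPKM in G_3 and 19.3 to 26.6% in the methanol libraries, and those that fell held 9.77% in G_3 and 1.59 to 2.95% in methanol. The rule chose these genes by their levels in the same libraries, so the direction of both shifts follows from it. The deposited values were scaled between libraries, with equal median-of-ratios factors in all 13, so these levels are relative. Every library was also rescaled without the same 20 genes, those with the largest mean FPKM over all 13 libraries. Such rescaling moved the median of all genes from −0.0069 to 0.11 and gave 355 genes that rose and 115 that fell. This makes 75.5% of the called genes higher in place of 64.8%. The plot of both feeds against each other shows the genes of methanol use far above the diagonal.

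**Figure D1:**
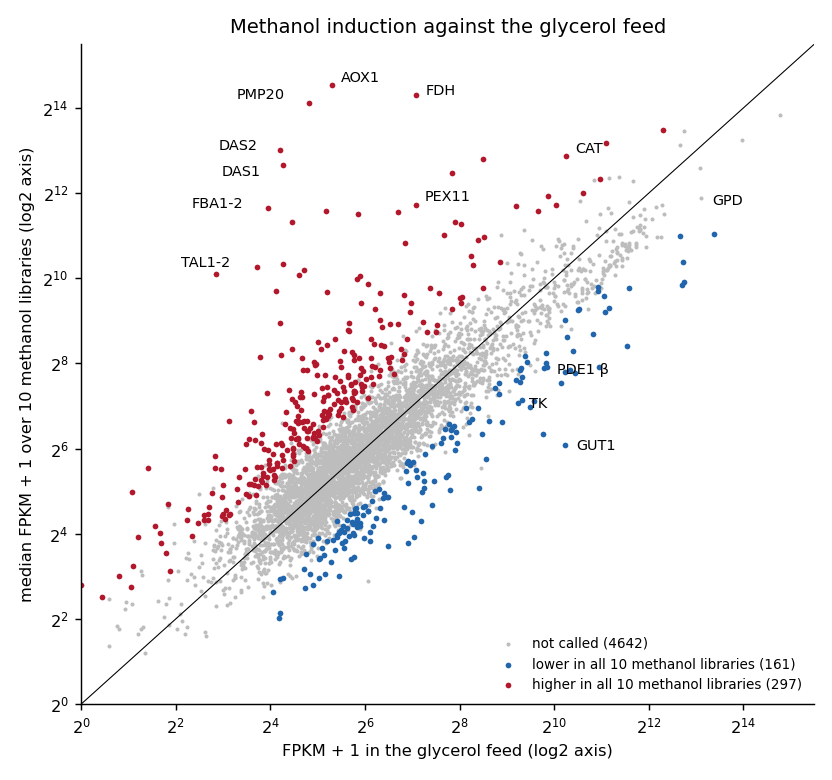
Level of each of 5100 genes in the glycerol feed (x axis, FPKM + 1, log2 axis) against its median over the 10 methanol libraries (y axis, same scale). Red points are the 297 genes that rose and blue points the 161 that fell in all 10 libraries. *AOX1*, *PMP20* and *FDH* lie at the top, and *GUT1* lies farthest below the diagonal among the labelled genes.

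All 6 listed genes of methanol oxidation and dissimilation rose, with a median difference of 6.03, beside −0.0069 over all genes. This list and those that follow were drawn by the study from these same libraries, so their counts are not independent evidence. *AOX1* (PAS_chr4_0821), the alcohol oxidase, had an FPKM of 38.2 in G_3 and 928 in GM_2. In the methanol libraries it ranged from 18912.5 (M_60) to 33180.4 (M_120), with a median of 23727. No methanol library came near the glycerol value, and the difference was 9.24 (8.92 to 9.73), which is 622-fold. *AOX1* thereby passed from rank 3170 by level in G_3 to rank 1 by mean level in methanol. *PMP20* (PAS_chr1-4_0547), which codes for a peroxisomal peroxiredoxin that removes peroxides, had 27.3 in G_3, 27.4 in B_10 and 291 in GM_2. Its methanol libraries lay between 13675 (M_24) and 24761 (M_120) around a median of 17846. The difference of 9.30 (8.92 to 9.77) was the largest of all genes. *PMP20* moved from rank 3879 to rank 3. Its level in G_3 rested on 533 fragments, with an exact Poisson interval of 489 to 580 that covers counting error only.

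The enzymes that oxidise formaldehyde differed in how high they already stood on glycerol. *FDH* (PAS_chr3_0932), the formate dehydrogenase of the last step, had 45.5 in B_10, 134 in G_3 and 13046 in GM_2. In methanol it ranged from 15396 (M_24) to 28257 (M_120) with a median of 20096, a difference of 7.21 (6.83 to 7.70). GM_2 was thus already close to the lowest methanol library for *FDH*, whereas for *AOX1* it was far below. *FLD* (PAS_chr3_1028), the glutathione-dependent formaldehyde dehydrogenase, had 358 in G_3, 2532 in GM_2 and a median of 7166 in methanol (5748 to 8455), a difference of 4.32. *FGH* (PAS_chr3_0867), the S-formylglutathione hydrolase between them, had 103 in G_3, 554 in GM_2 and a median of 2994 in methanol (2824 to 3861), a difference of 4.84. *CAT* (PAS_chr2-2_0131), the catalase that destroys hydrogen peroxide, had the smallest difference of the 6, at 2.61 (2.42 to 2.74). It was also the most abundant of them on glycerol, with 1224 in G_3 and a median of 7469 in methanol (6548 to 8209).

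**Figure D2:**
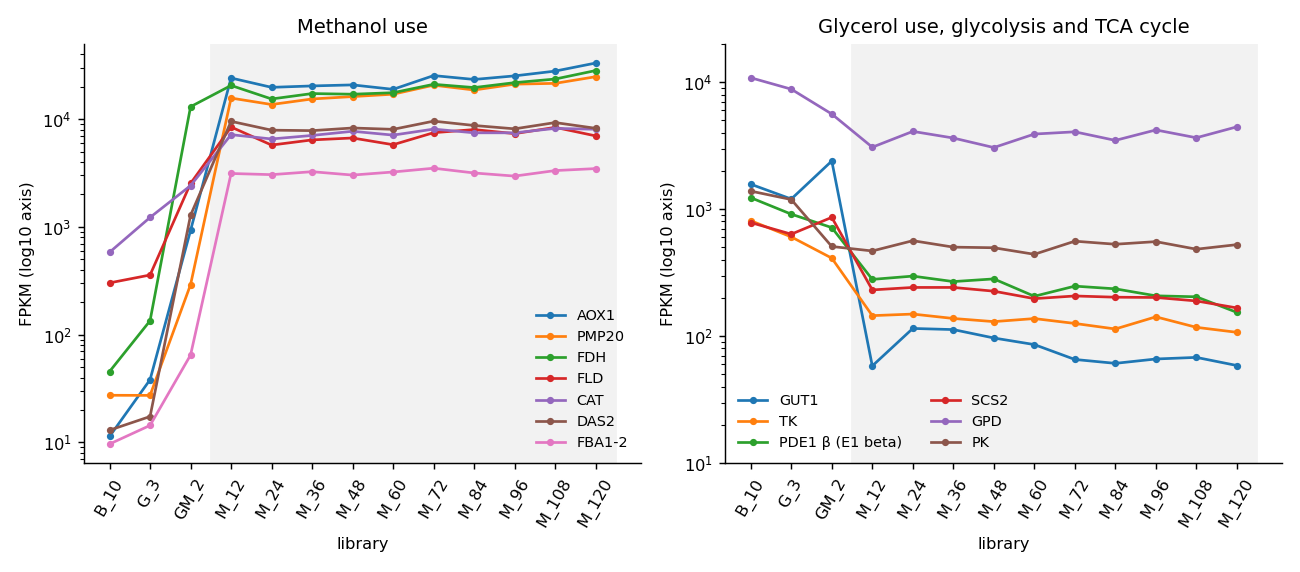
FPKM (log10 axes) of genes of methanol use (left) and of glycerol use, glycolysis and the TCA cycle (right) in each of the 13 libraries, with the 10 methanol libraries shaded and lines joining the libraries of a gene in order of phase. On the left all 7 genes lie higher in every methanol library than in G_3, where *AOX1* had 38.2, and on the right all 6 lie lower.

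All 7 genes of methanol assimilation rose, with a median difference of 6.55. The dihydroxyacetone synthases led this list. *DAS2* (PAS_chr3_0834) had 17.4 in G_3 and 1283 in GM_2, and in methanol it lay between 7825 (M_36) and 9585 (M_72) with a median of 8254, a difference of 8.81 (8.73 to 9.03). *DAS1* (PAS_chr3_0832) had 18.2 in G_3, 374 in GM_2 and a median of 6451 in methanol (5671 to 7285), a difference of 8.39. Both genes stood at nearly the same level on glycerol, and *DAS2* was the higher in GM_2 and in methanol. They are close copies, and how reads were divided between them was not examined. *DAK* (PAS_chr3_0841), the kinase that phosphorylates dihydroxyacetone, had 261 in G_3, 845 in GM_2 and a median of 2477 in methanol (2285 to 2867), a difference of 3.24. *FBPI* (PAS_chr3_0868), fructose-1,6-bisphosphatase, had the smallest difference of the list, at 2.30 (1.79 to 2.65), from 299.9 in G_3 to a median of 1478 in methanol.

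The assimilation cycle uses a second set of sugar phosphate enzymes that, in this yeast, carry peroxisomal targeting signals. Its listed members *FBA1-2*, *TAL1-2* and *RKI1-2* rose, while most of the listed cytosolic counterparts had values below those in G_3. The study also names the pair *Rpe1-1* (cytosolic) and *Rpe1-2* (peroxisomal), which was not in the lists used here. It reports neither as differentially regulated during methanol induction. *FBA1-2* (PAS_chr1-1_0319), the aldolase of the second set, had 14.4 in G_3, 64.7 in GM_2 and a median of 3199 in methanol (2962 to 3505), a difference of 7.70. The cytosolic *FBA1-1* (PAS_chr1-1_0072) had 3384 in G_3 and a median of 1759 in methanol (1587 to 2056). It was not called, since its differences, −0.94 in the median, ran from −1.09 to −0.72. The FPKM ratio of *FBA1-2* to *FBA1-1* was 0.00425 in G_3, 0.0327 in GM_2 and 1.52 to 2.05 in methanol. *TAL1-2* (PAS_chr2-2_0338), the transaldolase of the set, had 12.2 in G_3 and a median of 1236 in methanol (1021 to 1430), a difference of 6.55. Its G_3 value rested on 491 fragments (exact Poisson interval 449 to 536). *TAL1-1* (PAS_chr2-2_0337) had 1395 in G_3 and a median of 768.9 in methanol, a difference of −0.86 (−0.99 to −0.63), so that the ratio of the pair went from 0.00873 in G_3 to 1.28 to 1.82 in methanol. In both pairs the isoform that was rare on glycerol was the more abundant one in every methanol library.

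For the ribose 5-phosphate isomerases the more abundant isoform changed too. The ratio of *RKI1-2* to *RKI1-1* was 0.192 in G_3 and 3.81 to 4.51 in methanol. Unlike in the pairs above, the cytosolic gene did not lie below G_3. *RKI1-2* (PAS_chr4_0212) rose by 5.49 (5.26 to 5.73), from 25.2 in G_3 to a median of 1176, and its cytosolic neighbour *RKI1-1* (PAS_chr4_0213) also lay above G_3 in all 10 libraries, with 131.3 in G_3 and a median of 289. *RKI1-1* had a difference of 1.13 (0.94 to 1.32) and missed the call in M_24 alone. It was called without that library and after rescaling. *TK* (PAS_chr1-4_0150), the transketolase that shares its reaction type with dihydroxyacetone synthase, fell. It had 811 in B_10, 604 in G_3 and 411 in GM_2, and in methanol it ranged from 107 (M_120) to 149 (M_24) with a median of 134, a difference of −2.17 (−2.49 to −2.01). The *DAS2* to *TK* ratio was 0.0288 in G_3 and 53.0 to 79.2 in methanol. Of the 4 cytosolic counterparts only *TK* was called, beside 8.98% of all genes in either direction, and the list median was −0.90.

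Of the 14 peroxins and peroxisomal membrane proteins, 11 rose and none fell, with a median of 2.20. Peroxins build the organelle and import its enzymes. *PMP34* (PAS_chr3_0099), a carrier of the peroxisomal membrane, had 56.7 in G_3, 152.1 in GM_2 and a median of 2927 in methanol (2097 to 3289.7), the largest difference of the list at 5.67. *PEX11* (PAS_chr2-1_0504), which promotes the division of peroxisomes, had 133 in G_3, 851 in GM_2 and a median of 3386 in methanol (2544 to 3989.5), a difference of 4.65. *PEX5* (PAS_chr2-2_0186), the receptor for the C-terminal targeting signal PTS1, had 35.6 in G_3, 169 in GM_2 and a median of 812 in methanol (639 to 898), a difference of 4.47. For these genes every methanol library exceeded both G_3 and GM_2. The docking factors *PEX13* and *PEX14* rose by 3.32 and 2.46, the ATPase *PEX6*, which recycles the receptor, by 3.37, and the ubiquitin ligase *PEX2* by 2.08. *PEX3*, the membrane anchor for the insertion of membrane proteins, rose by 1.89, and *PEX20*, a co-receptor for the targeting signal PTS2, by 1.84.

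The 3 members that were not called were spread over roles. *PEX19* (PAS_chr2-1_0715), the soluble partner of *PEX3*, had a difference of 1.06 (0.76 to 1.23). *PEX7* (PAS_chr1-4_0433), the PTS2 receptor, had 28.5 in G_3 and a median of 44.3 in methanol, a difference of 0.62 (0.25 to 0.93), against 4.47 for the PTS1 receptor *PEX5*. *PXMP4* had −0.18 (−0.51 to 0.25) and was the only member with methanol libraries on both sides of the glycerol value.

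Genes of fatty acid oxidation in the peroxisome had small differences. Among 8 genes 1 rose, beside 5.82% of all genes. This was *PDCR* (PAS_chr3_0975), a 2,4-dienoyl-CoA reductase for unsaturated fatty acids, which rose by 1.68 (1.52 to 2.20). It had 117 in G_3, a median of 379 in methanol and 1335 in GM_2, so the mixed feed held the highest value. The median of the list was 0.68 and ranged from 0.44 to 1.47 over the methanol libraries. The acyl-CoA oxidase *ACOX* had 182 in G_3 and a median of 191 in methanol, and the thiolase *ACAA1* had 283 and 379. For *ACOX* the methanol libraries fell on both sides of G_3, while GM_2 held 1307 for *ACOX* and 2643 for *ACAA1*, above all methanol libraries. The acyl-CoA synthetase gene *ACSL2* (PAS_chr4_0352) had 164 in G_3 and ranged from 42.3 (M_84) to 176 (M_36) in methanol.

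**Figure D3:**
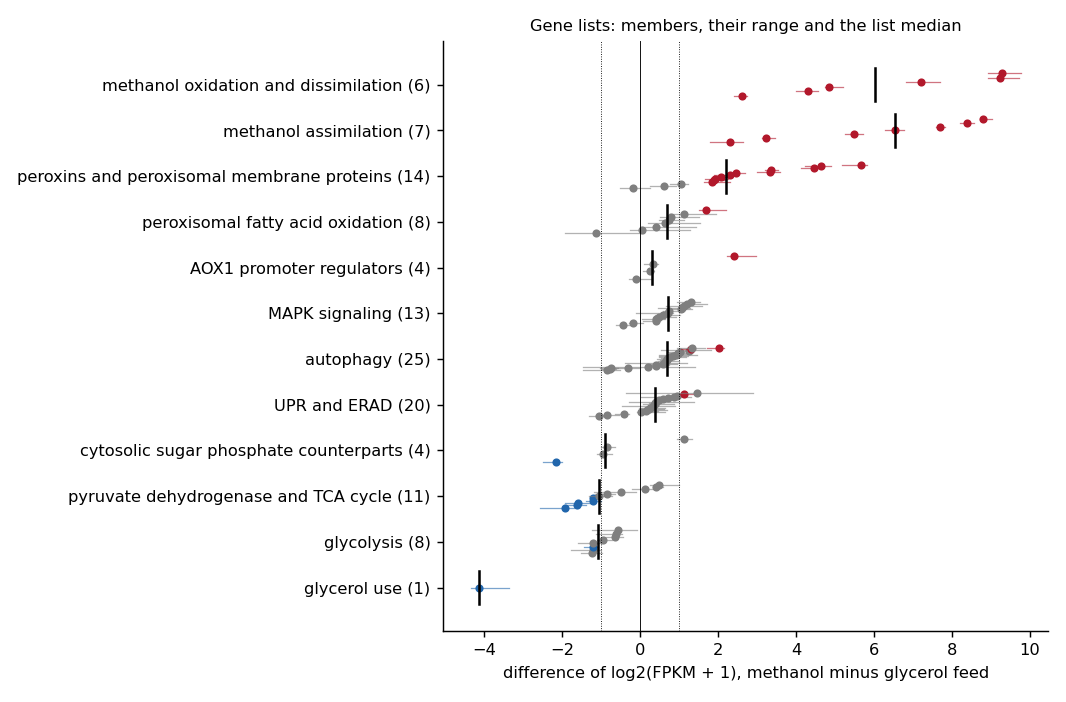
Median difference of log2(FPKM + 1) between methanol and the glycerol feed (x axis) for each member of 12 gene lists (points, list size in parentheses), with horizontal bars for its range over the 10 methanol libraries and a black bar for the list median. Red members rose, blue members fell and grey members were not called, with dotted lines at −1 and 1. The lists of methanol oxidation (median 6.03) and assimilation (6.55) stand apart from the other 10.

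*GUT1* (PAS_chr4_0783), the glycerol kinase that begins glycerol use, had the largest fall of all genes. Its FPKM was 1572 in B_10, 1202 in G_3 and 2395 in GM_2. In methanol it ranged from 58.3 (M_12) to 115 (M_24) with a median of 67.0, a difference of −4.14 (−4.34 to −3.38), which is 17.9-fold lower. Thus *GUT1* was at its highest in the mixed feed, and even the highest methanol library was far below G_3. *ADH* (PAS_chr1-1_0357), an NADPH-dependent alcohol dehydrogenase that the study also relates to glycerol metabolism, was not called. It had 16.6 in G_3 and a median of 10.0 in methanol, a difference of −0.68 (−1.62 to −0.37).

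All 8 genes of glycolysis lay below their glycerol value in all 10 methanol libraries, with a list median of −1.08. Over all genes, 1820 of 5100 did so and 3.16% were called lower. Of the 8, only *PK* (PAS_chr2-1_0769), pyruvate kinase, was called. It had 1191 in G_3, 508 in GM_2 and a median of 514 in methanol (441 to 565), a difference of −1.21 (−1.43 to −1.08), and it lost the call after rescaling. GM_2 lay within the range of the methanol libraries for *PK*. *GPD* (PAS_chr2-1_0437), glyceraldehyde-3-phosphate dehydrogenase, was the fourth most abundant transcript in G_3, with 8813, and had a median of 3778 in methanol (3057 to 4451). Its difference of −1.22 missed the call in M_120 alone, at −0.985, and it was called without that library. Phosphoglycerate kinase (*PGK*) at −1.22 and enolase (*ENOI*) at −1.21 also had medians beyond −1 without being called. With the mean of G_3 and B_10 as reference, *GPD*, *PGK* and *ENOI* were all called lower, and *GPD* and *PGK* also on values divided by the sum of FPKM. The other 4, aldolase (*FBA1-1*), phosphofructokinase (*FPK1*), glucose-6-phosphate isomerase (*GPI*) and phosphoglycerate mutase (*TPM*), had medians between −0.94 and −0.58. Together the 8 genes held 1.95% of all FPKM in G_3 and 0.763 to 0.993% in methanol.

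Of 11 genes of the pyruvate dehydrogenase complex and the TCA cycle, 5 fell and none rose, with a median of −1.06. The E1 beta subunit of pyruvate dehydrogenase, *PDE1* (PAS_chr1-4_0593), had 913 in G_3, 716 in GM_2 and a median of 242 in methanol (154 to 297), a difference of −1.91 (−2.56 to −1.62). Its E1 alpha subunit (PAS_chr2-2_0294) was not called, at −0.84 (−1.16 to −0.65). The E2 subunit *PDE2* fell by 1.20 and the dihydrolipoamide dehydrogenase *DLD*, which the complex shares with other enzymes, also fell by 1.20. Both lost the call after rescaling, and *DLD* also with a pseudocount of 5 and on values divided by the sum of FPKM. Succinyl-CoA ligase fell in both subunits. *SCS1* (PAS_chr2-2_0407), the beta subunit, had 902 in G_3 and a median of 301 in methanol (235 to 369), a difference of −1.58. *SCS2* (PAS_chr3_0831), the alpha subunit, had 636 in G_3, 862 in GM_2 and a median of 205 in methanol (167 to 242), a difference of −1.63. The transsuccinylase of 2-oxoglutarate dehydrogenase (*ODE*), at −1.06 (−1.30 to −0.73), and isocitrate dehydrogenase (*IDH*), at −0.48 (−1.17 to −0.12), lay below G_3 in all 10 libraries without being called. The remaining 3 members did not share this direction. Citrate synthase (*CTS*) had 0.50 (0.25 to 0.99) and malate dehydrogenase (*MDH*) 0.41 (0.33 to 0.60), both above G_3 in all 10 libraries, and succinate dehydrogenase (*SDH*) had 0.13 (−0.20 to 0.43).

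Among 4 regulators of the *AOX1* promoter, only *Mit1* (PAS_chr3_0836), a transcription factor that activates it, rose, beside 5.82% of all genes. Its FPKM was 83.8 in B_10, 164 in G_3 and 3542 in GM_2, and in methanol it lay between 775 (M_60) and 1297 (M_108) with a median of 871, a difference of 2.40 (2.24 to 2.98). *Mit1* was thus highest in the mixed feed, unlike *AOX1*. The activators *Mxr1* and *Prm1* had differences of 0.26 (0.07 to 0.36) and 0.33 (0.10 to 0.45), and the study's gene *C4qzn3* had −0.09 (−0.29 to 0.28). *Mxr1* and *Prm1* lay above their glycerol values in all 10 methanol libraries by less than the threshold.

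None of 13 genes of MAPK signaling was called, although 10 lay above G_3 in all 10 methanol libraries and the list median was 0.72. Over all genes, 8.98% were called in either direction, and 1791 of 5100 lay above G_3 in every methanol library. The transcription factor *Tec1* had a median difference of 1.31 (0.94 to 1.54), the phosphotransfer protein *Ypd1* 1.21 (0.996 to 1.72), and the cell wall integrity kinase *Slt2* 1.14 (0.67 to 1.58). *Tec1* and *Ypd1* missed the call in M_120 alone and were called without it. With the mean of G_3 and B_10 as reference *Slt2*, *Tec1* and the kinase gene *Pbs2* were called higher, and *Ypd1* was called with a pseudocount of 0.1. The osmotic stress kinase *Hog1* had −0.19 (−0.28 to 0.07).

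The genes of UPR and ERAD respond to unfolded proteins in the endoplasmic reticulum and remove those that do not fold. Of 20 such genes, 1 rose and none fell, beside 5.82% and 3.16% of all genes, and the median was 0.37. In all 10 methanol libraries 11 members lay above G_3 and 3 below, beside 1791 and 1820 of all 5100 genes. The gene that rose, 1 of 2 identifiers named *Hrd1* (PAS_chr4_0444), codes for a ubiquitin ligase of the ER membrane and had a difference of 1.13 (1.03 to 1.46), lost with a pseudocount of 5. The other identifier (PAS_chr4_0156) had 0.03 (−0.07 to 0.63). The transcription factor *HAC1* had 198 in G_3 and a median of 365 in methanol, a difference of 0.88 (0.01 to 1.30). The ER chaperone BiP, listed as *Kar1/BiP*, had 0.34 (−0.46 to 0.90) and *Hsp90* 0.40 (−0.28 to 1.39). *Hsp70* (PAS_chr3_0230) had the largest median of the list, 1.47, and the widest range (−0.36 to 2.90), with 1831 in G_3 and from 1430 (M_12) to 13643 (M_120) in methanol. For BiP, *Hsp90* and *Hsp70*, the methanol libraries lay on both sides of the glycerol value. The 3 members below G_3 throughout were *Sec61*, the channel of the ER membrane, at −1.04 (−1.31 to −0.94, called lower with the mean of G_3 and B_10 as reference), the translation initiation factor *eIF2a* at −0.85 (−1.13 to −0.54) and the *PDI* identifier PAS_chr1-3_0125 at −0.42 (−0.64 to −0.27). The other *PDI* identifier (PAS_chr4_0844) went the other way, with a median of 0.37 to 0.39 when each methanol library was left out in turn.

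Of 25 autophagy genes, 2 rose and none fell, beside 5.82% and 3.16% of all genes. Their median was 0.70, and 19 lay above and 4 below G_3 in all 10 methanol libraries, beside 1791 and 1820 of all 5100 genes. *PRB1* (PAS_chr1-1_0226), the vacuolar proteinase B, rose by 2.02 (1.73 to 2.16), from 311 in G_3 to a median of 1268, with 726 in GM_2. *ATG2* (PAS_chr1-3_0168), which acts in the expansion of the autophagosome membrane, rose by 1.31 (1.04 to 1.41) at low levels, from 7.70 in G_3 to 20.6, and lost the call with a pseudocount of 5 and on values divided by the sum of FPKM. Other genes of the list were not called. The kinase gene *ATG1* had 1.29 (0.54 to 1.81), the conjugating enzyme gene *ATG7* 1.33 (0.94 to 1.68) and *ATG8*, the protein attached to the autophagosome membrane, 0.93 (0.48 to 1.46). *ATG7* and the kinase gene *RIM15*, at 1.27 (0.985 to 1.36), missed the call in M_60 alone and were called without it, and also after rescaling. The medians of *ATG9*, *ATG15*, *ATG4*, *ATG17* and *ATG22* lay between 0.41 and 0.78. The members below G_3 throughout were *Vps39* at −0.85, *Tap42* at −0.77, *LCB1/2* at −0.75 and *Vps8* at −0.30.

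Beyond these lists, *PIM1-2* (PAS_chr1-1_0174), annotated by the study as a Lon protease, rose by 3.11 (2.79 to 3.45), from 29.4 in G_3 to a median of 262. PAS_chr2-1_0249, annotated as a peroxisomal 2,4-dienoyl-CoA reductase, rose by 2.31 (1.63 to 3.07) from 53.1 to 268, and GM_2 held 676. Of the 128 genes that the study names, 31 rose and 8 fell, which leaves 266 called genes without a name that rose and 153 that fell. Some of the unnamed genes had differences as large as those of the listed genes of methanol use. PAS_chr1-1_0037 had 6.17 in G_3, 42.3 in GM_2 and a median of 1101 in methanol, a difference of 7.26 (6.92 to 7.51), and PAS_chr4_0152 had 20.9 in G_3, 91.3 in GM_2 and a median of 2552, a difference of 6.87 (5.56 to 7.55). For both, every methanol library lay far above GM_2. PAS_chr4_0152 had been planned for the list of methanol oxidation, so it is not counted here as a gene outside methanol use. In the other direction, PAS_chr4_0784 had 871 in G_3, 1947 in GM_2 and a median of 79.7 in methanol, a difference of −3.44 (−3.84 to −2.78), and PAS_chr2-1_0580 had 337.6 in G_3, 205 in GM_2 and a median of 32.7, a difference of −3.33 (−3.68 to −1.92).

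**Figure D4:**
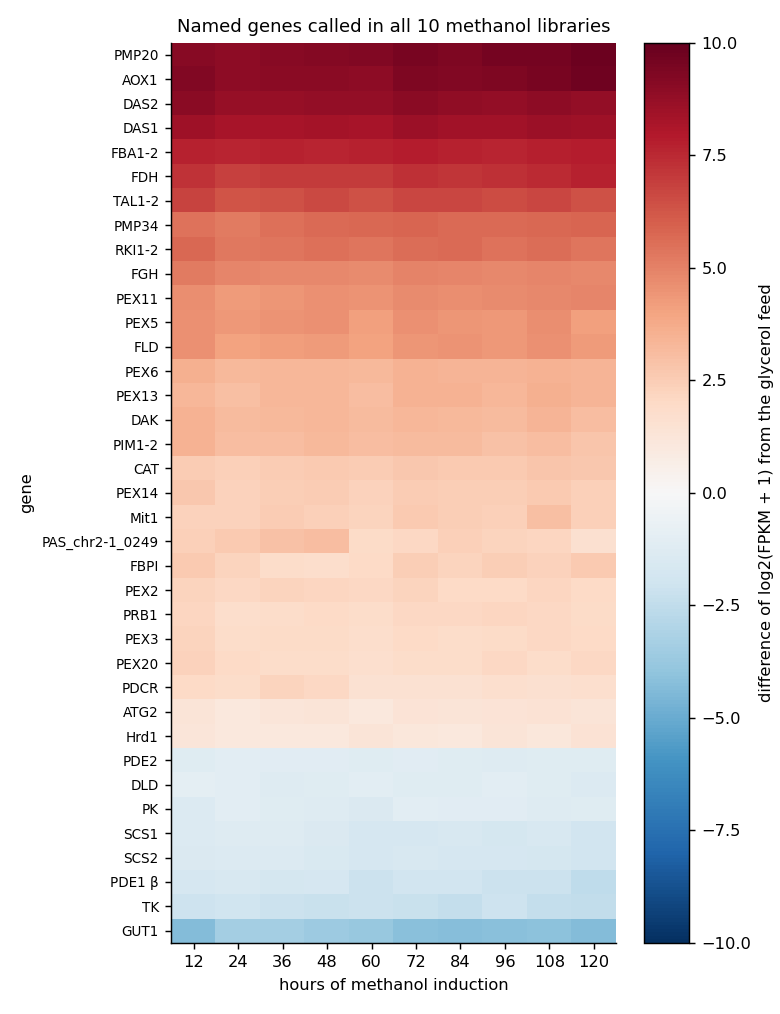
Difference of log2(FPKM + 1) from the glycerol feed (colour, red higher and blue lower) for 29 of the named genes that rose and the 8 that fell (rows, ordered by median difference) in each of the 10 methanol libraries (columns, hours of induction). The first row is *PMP20* (8.92 to 9.77) and the last is *GUT1* (−4.34 to −3.38), and within a row the shades change little between libraries.

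The size of the response differed between methanol libraries more for the genes below the glycerol value than for those above it. The number of genes at least 1 higher than in G_3 ranged from 481 (M_24) to 648 (M_120), and the number at least 1 lower ranged from 250 (M_60) to 694 (M_12). In at least 1 methanol library 914 genes passed upward and 894 downward, of which 32.5% and 18.0% passed in all 10. Another 86 genes passed upward in exactly 9 libraries, and M_60 was the missing library for 35 of them and M_12 for 26. For the 60 genes that passed downward in exactly 9, M_60 was missing for 38. Without M_60, 332 genes rose and 199 fell. Genes near the threshold separated by very little. The last gene inside the upper threshold had 1.0006 in its lowest library and the first outside had 0.9989, and in the downward direction these values were −1.0005 and −0.9990.

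**Figure D5:**
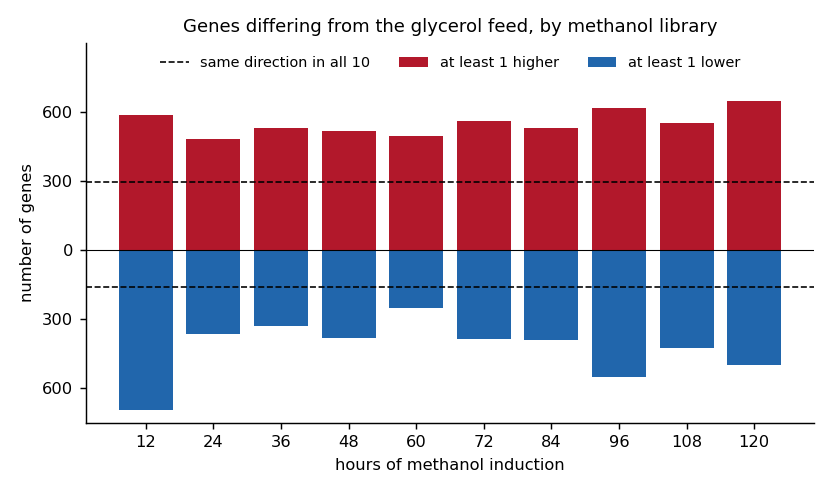
Number of genes at least 1 higher (red, upward) and at least 1 lower (blue, downward) than in the glycerol feed on the log2(FPKM + 1) scale, for each methanol library by hours of induction. Dashed lines mark the 297 genes that rose and the 161 that fell in all 10 libraries, and the downward bars range from 250 at 60 h to 694 at 12 h.

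Several of the genes that rose were neighbours on a chromosome. Gene order was taken from the RefSeq table of ASM2700v1, in which 283 of the genes that rose and 160 of those that fell have a position. An adjacent gene also rose for 93 of the 283 (32.9%), while 10.7% of all 5032 tested genes with a position had a neighbour that rose. An adjacent gene also fell for 23 of the 160 (14.4%), beside 6.32% of all genes. On chromosome 3, *DAS1*, *DAS2* and *Mit1* stood in 1 run of 5 adjacent genes that all rose, together with 2 unnamed genes. *GUT1* adjoined PAS_chr4_0784, the unnamed gene with the fall of −3.44 described above. Whether fragments were counted by strand is not given in the sources used here, so reads of overlapping neighbours cannot be told apart. The median gene length was 1230 bases for genes that rose, 1204.5 for those that fell and 1199 over all genes.

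Changes during methanol induction were tested within the 10 methanol libraries, a measure that does not use G_3. A linear trend over the hours was fitted with limma for all 5100 genes, and its adjusted p (Benjamini-Hochberg) was at most 0.05 for 249 rising (4.88%) and 143 falling genes (2.80%). These p-values measure the scatter of 1 culture around a line. Of the 297 genes higher than on glycerol, 23 went on rising and 5 fell, and of the 161 lower genes 2 rose and 5 fell, so that 9.43% and 4.35% had a trend, beside 7.69% of all genes. Both classes were chosen with the same 10 methanol libraries, so their shares are not independent of the rule. The counts over all genes depended on single libraries. The share of rising genes was 2.20% without M_24, 2.98% without M_48, 2.33% without M_96 and 2.10% without M_120. The share of falling genes was 5.0% without M_12, 0.843% without M_24, 1.67% without M_36, 1.43% without M_48, 1.57% without M_72, 0.961% without M_96 and 0.745% without M_120. After rescaling, 2.57% of genes rose and 7.31% fell.

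Of the 13 genes of methanol use, *PMP20* passed the trend test with the settings above. It went from 15695 in M_12 to 24761 in M_120, a fitted change of 0.74 ± 0.12 (SE, log2 scale) with an adjusted p of 0.00577 by limma, which was 0.00354 to 0.0835 over the alternatives and highest without the filter on low values. The fitted changes of *AOX1* and *FDH* were 0.55 ± 0.17 and 0.60 ± 0.17, with adjusted p of 0.0704 and 0.0521 by limma, which ranged from 0.00962 to 0.303 and from 0.00354 to 0.235 over the alternatives and so fell on both sides of the threshold. Among the genes lower than on glycerol, 3 of the TCA cycle and pyruvate dehydrogenase fell further. *PDE1* (E1 beta) went from 280 to 154 FPKM, a change of −0.76 ± 0.15 (adjusted p = 0.0145 by limma), *SCS2* had −0.46 ± 0.10 (0.0211) and *SCS1* −0.54 ± 0.13 (0.0315). All 3 lost the call without M_120, with adjusted p of 0.0744, 0.0986 and 0.133 by limma. Without M_24 the values for *SCS2* and *SCS1* were 0.0623 and 0.0850, and *SCS1* also lost the call without M_36, M_48 or M_96. *ACSL2* had the steepest fall of the named genes, from 109 to 43.8 FPKM with its highest value in M_36, at −2.08 ± 0.41 (adjusted p = 0.0152 by limma, 0.00674 to 0.0490 over the alternatives). *Ste3*, a pheromone receptor of the MAPK list, rose from 15.3 in M_12 to 28.1 in M_120, by 0.81 ± 0.13 (adjusted p = 0.00503 by limma, 0.00474 to 0.0189 over the alternatives), while its value in G_3 was 10.9.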

How the data were processed

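Total RNA of 13 samples was sequenced by the authors, whose notes name HISAT2 2.0.5 for alignment. For the build, the counting tool and its use of strand, the entry is: not given in the sources used here. The authors deposited FPKM, which includes scaling to gene length and to a divisor for each library. This divisor was not the plain library size, since median-of-ratios factors were equal in all 13 libraries and some libraries held more fragments in genes than their divisor. The deposited gene length, in bases, was not used. Fragment numbers were recovered with the gene lengths of the RefSeq table that gave the gene order. No column was left without a sample.

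Differences of log2(FPKM + 1) from the glycerol feed were taken for genes whose mean over the 13 libraries reached 1. Trends over hours within methanol were fitted with limma 3.58.1 in R 4.3.3 (empirical Bayes with intensity trend, 8 residual degrees of freedom). Python 3.11.15, numpy 2.4.6, pandas 2.3.3, scipy 1.17.1 and matplotlib 3.10.9 were used for the rest. Both procedures were run on simulated data with independent noise. Such data cannot show the variation between glycerol cultures or the dependence of serial samples of 1 culture. Intervals and recovered depth cover counting error only.

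The comparison, the genes and the lists were chosen with earlier results of these data known. Genes were named by the study's supplementary gene tables (128 genes). The rule for naming took the called genes with the largest differences in each direction, the leading called members of each list, all named genes of methanol and glycerol use, the most abundant genes and the steepest trends. It asked for the 15 largest in each direction, but unnamed genes were limited to 2 that rose and 2 that fell, and further list members were added after their values were seen. In all, 20 further lists that needed product descriptions could not be built, and PAS_chr4_0152, planned for the oxidation list under a gene name that no source used here ties to this identifier, was left out of it. The alternatives were pseudocounts of 0.1 and 5, no filter or a minimum mean of 10, and other choices of the threshold (0.5 and 1.5, or the median alone), the scaling, the reference, the limma settings and the libraries used. Some called genes are not reported by name here. Isoforms with similar sequences may share reads.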

Additional observations from a re-analysis of the deposited data

Results flagged for a closer look

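Among 141 groups of 10 differences, the highest or lowest methanol library stood apart from the other 9 in 11. For independent normal values without a trend, about 1 in 20 groups would do so. The groups share libraries and genes, so the 11 cannot be set against that rate. M_12 was the library apart for 7 of the 11, all of single genes. *FGH* was highest there, at 5.21 (next 4.94), as were *Hrd3* at 0.69 (next 0.34) and the *Hrd1* identifier PAS_chr4_0156 at 0.63 (next 0.24). *PGK* was lowest there, at −1.77 (next −1.33), as were *GPI* at −1.13 (next −0.79), *ADH* at −1.62 (next −1.04) and *Sec61* at −1.31 (next −1.11). M_120 stood apart for *C4qzn3*, at 0.28 (next −0.06), and for the median of the MAPK list, at 0.39 (next 0.64). M_96 was highest for *DGA1*, at −0.043 (next −0.37), and M_60 lowest for *ATG11*, at 0.73 (next 0.92).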

How the results depend on the processing

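No paired analysis was possible because only the methanol induction group has more than 1 sample. Every list median and every named gene that was called kept its direction under all alternatives run. Some named genes that were not called changed sign. Leaving out each methanol library in turn, the median of *ACOX* ran from −0.09 to 0.21. That of the *Hrd1* identifier PAS_chr4_0156 ran from −0.01 to 0.08. Of 2174 values of named genes under an alternative, 2085 stayed within 1 SD over the methanol libraries and 89 moved by more. The number of called genes depended most on the threshold. With 0.5, 723 genes were higher and 651 lower, with 1.5 the counts were 154 and 48, and with a median of at least 1 in place of all 10 libraries they were 530 and 391. With a pseudocount of 5 the median of methanol assimilation was 6.17. After rescaling, the medians were −0.77 for the cytosolic counterparts, 2.31 for peroxins, −0.93 for pyruvate dehydrogenase and the TCA cycle, 0.41 for the *AOX1* regulators and 0.50 for UPR and ERAD, and trends rose in 2.57% of genes and fell in 7.31%. With the mean of G_3 and B_10 as reference, the medians were 6.59 for methanol oxidation, −1.22 for glycolysis, −1.09 for the cytosolic counterparts, −1.20 for pyruvate dehydrogenase and the TCA cycle, 0.96 for MAPK signaling and 0.88 for autophagy. That reference called 343 genes higher and 188 lower, of which 276 and 111 were among those called against G_3 alone. Leaving out each methanol library in turn gave 297 to 332 higher and 161 to 199 lower genes, and trends that rose in 2.10 to 6.57% of genes and fell in 0.745 to 5.0%. The cause of these shifts was not tested. Among called genes with recovered fragments, the fewest in G_3 were 27 for genes that rose and 632 for genes that fell, and 1 further identifier that rose was listed at 0 there.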
